A study of Homo sapiens with 4 samples.

Results

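The mRNAs of 39 nuclear-encoded subunits of respiratory complexes II, III and IV and of ATP synthase (complex V) were followed in RNA bound to tagged FMRP and in the lysate it came from. Members were the genes of a fixed list, each measured by the probe sets that carry its symbol as their single platform symbol. This gave 78 of 54613 probe sets, for 36 of the 39 genes, and 35 genes reached the filter on low signal. SDHB, UQCRFS1 and UQCRH had no probe set with a single symbol and were not analysed here under that rule. ATP5MF was left out of the tests because its single probe set averaged 4.66 over the arrays, just under the minimum of 4.69.

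The cells were FlpIn T-Rex HEK293, a line of human embryonic kidney origin that carries an integrated transgene under doxycycline control, and all were induced with 1 µg/ml for 16 h. The immunoprecipitated (IP) samples hold RNA pulled down with FlagHA-tagged FMRP by an anti-FLAG M2 antibody, washed at 300 mM KCl, and the lysate samples hold total RNA taken before that step. There were 2 lysate and 2 IP samples, each on its own Affymetrix human expression array. No genotype, clone or untagged control is named in the labels, no mock IP is among the samples, and separate cultures are not mentioned for the replicates, so p-values measure a spread that may be technical. FMRP, the fragile X protein, was overexpressed here, and its binding was read in kidney-derived cells, not in neurons. Of 7 genes fixed as HEK293 markers 6 had a probe set. NEFL and VIM lay between 11.7 and 12.8 (log2 signal) on the 4 arrays. PAX2 lay between 6.23 and 6.53 and EYA1 between 6.51 and 6.64. LHX1 lay between 4.81 and 4.99, just above the array medians of 4.67 to 4.71, and NEFM between 3.73 and 4.41, below them. Of 8 markers of other cell types, HBB (5.42 to 5.87) and GFAP (4.39 to 5.26, a change of 0.56) reached the filter and the others lay below the array medians.

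The respiratory chain passes electrons from succinate (complex II) and from NADH (complex I) through ubiquinol to complex III, then through cytochrome c to complex IV, which reduces oxygen. The proton gradient built on the way drives ATP synthase. Apart from complex II, these complexes mix a few subunits made inside the mitochondrion with many that are translated in the cytosol from nuclear mRNAs and imported. The imported ones range from large catalytic proteins, such as SDHA and the alpha and beta chains of ATP synthase, to single-helix proteins that surround the core, such as COX8A and UQCR11.

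Nuclear genes of the respiratory chain are known to share promoter elements for NRF1, for the ETS family factor GABP and for YY1. The 4 member promoters shown illustrate the NRF1 and ETS elements, and none of them holds a match to the YY1 element. Sequences are from RefSeq (GRCh38.p14), run 5′ to 3′ on the gene's strand, end at or before the transcription start, and have the matches in capitals. The stretch of SDHA lies at chr5:218134-218319 on the plus strand, that of SDHD at chr11:112086743-112086822 on the plus strand, that of UQCR11 at chr19:1605463-1605599 on the minus strand and that of COX8A at chr11:63974582-63974619 on the plus strand.
SDHA: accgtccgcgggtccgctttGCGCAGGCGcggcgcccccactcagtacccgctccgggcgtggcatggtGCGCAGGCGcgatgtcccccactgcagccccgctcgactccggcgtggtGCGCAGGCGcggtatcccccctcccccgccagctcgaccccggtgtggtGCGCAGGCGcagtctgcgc
SDHD: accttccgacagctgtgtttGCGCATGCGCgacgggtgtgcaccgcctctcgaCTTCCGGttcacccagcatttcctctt
UQCR11: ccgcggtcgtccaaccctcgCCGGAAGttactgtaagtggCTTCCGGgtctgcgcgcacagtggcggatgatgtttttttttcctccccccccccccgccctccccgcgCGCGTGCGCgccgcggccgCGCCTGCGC
COX8A: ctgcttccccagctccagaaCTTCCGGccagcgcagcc
SDHA holds 4 copies of the NRF1 element, which begin at bases -166, -117, -68 and -19 from its start, while COX8A holds a single ETS element near its start. In SDHD the NRF1 element matches on both strands, beginning at bases -110 and -109. The letters searched, on both strands, were GCGCANGCG for NRF1, CCGGAAG for ETS factors and AAGATGGCG for YY1. Promoters were listed for 28 of the 35 members. Of these, 11 (39.3%) held the NRF1 element, against 14.3% of the promoters of genes tested and 7.52% of all 35116 promoters of the same length. The ETS element was in 12 (42.9%), against 18.1% and 10.3%, and the YY1 element in 2 (7.14%), against 3.74% and 1.75%. A match is a description of these letters and not a binding site.

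Most of the subunit mRNAs were under-represented in the FMRP IP. Of 35 members, 26 fell (limma, adjusted p at most 0.05), 4 rose (SDHA, ATP5F1A, ATP5F1B and UQCRC2) and 5 did not pass. Of all 13165 genes tested, 63.8% were called, 28.8% lower and 35.0% higher. Falls of at least 2-fold were seen for 24 members, where 12.8% of all genes fell that far. No member rose 2-fold, as 12.4% of all genes did. The count of 4 higher members was 2 with either lysate or IP replicate 2 left out, where ATP5F1B and UQCRC2 did not pass and SDHA and ATP5F1A did. The median change (IP minus lysate, log2) was -1.40 over the members and 0.08 over all genes. Both IP arrays lay below both lysate arrays for 27 members, against 37.2% of all genes, and above both for 6, against 45.1%; the groups overlapped for UQCRB and ATP5PD. Since the table is on a relative scale, these values place the mRNAs against the other probe sets of the array. The spiked hybridization controls stood 0.48 above their lysate level in the IPs, and centring each array on them put the median over all genes at -0.40. In that setting 15.9% of all genes were higher and 48.5% lower, 28 members were lower and none was higher by limma (1 at an unadjusted p of 0.05), while the median of the members stayed 1.48 below that of all genes by construction.

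**Figure D1:**
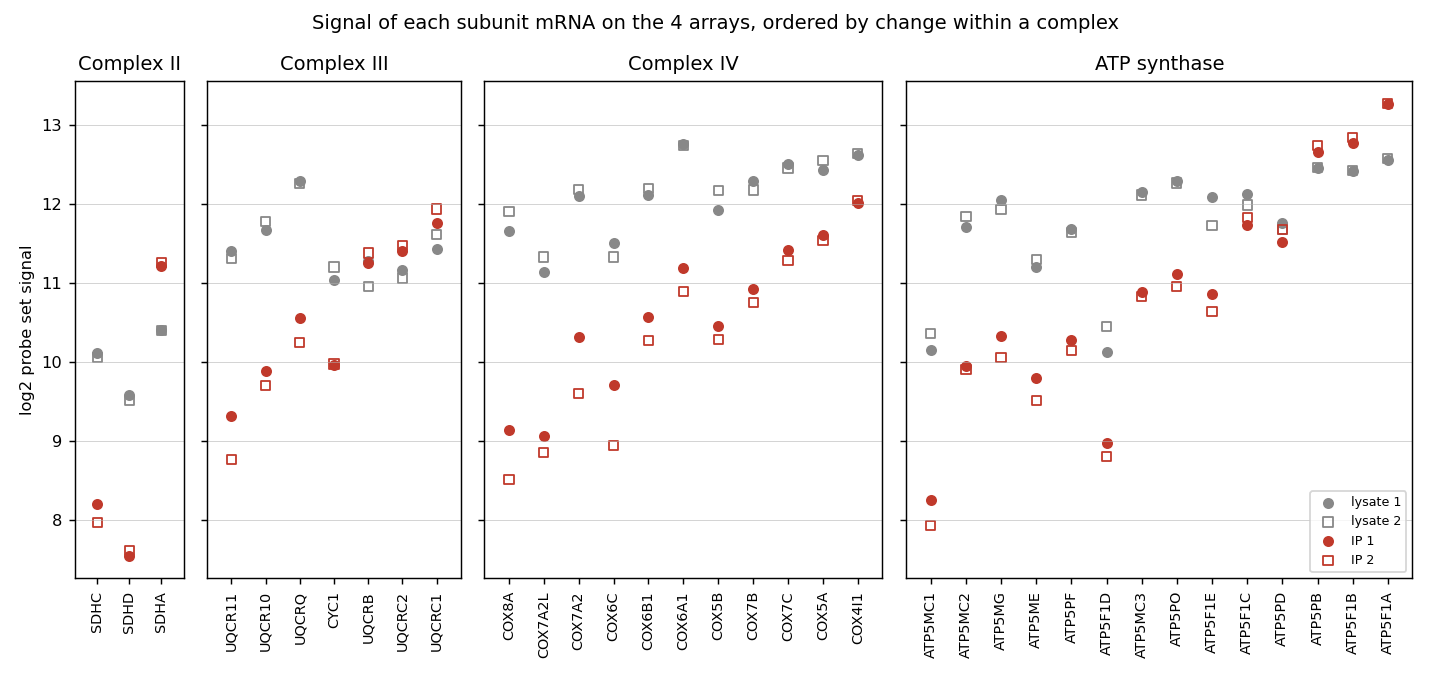
Log2 probe set signal (vertical axis) of the 35 members on each of the 4 arrays, by complex and ordered by the change within it; grey marks are lysates and red marks are IPs, filled circles replicate 1 and open squares replicate 2. In complex IV the red marks lie below the grey ones for each of the 11 genes, while SDHA, ATP5F1A, ATP5F1B, ATP5PB, UQCRC1 and UQCRC2 have red marks above grey ones; signals of different genes come from different probes and have no order among them.

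The 2 lysates and the 2 IPs were close to each other across probe sets (Pearson's r over 27307 probe sets, which are not independent replicates, 0.992 and 0.990, against 0.875 to 0.904 between a lysate and an IP). With 2 samples a group an exact two-sided permutation test of a single value cannot go below p = 0.333, so calls rest on the spread that limma pools over genes. The arrays carry probes to the 3′ and 5′ ends of the actin and GAPDH mRNAs as a check of RNA integrity. The 3′ signal exceeded the 5′ signal of actin by 1.34 and 1.37 on the lysate arrays and by 2.96 and 3.02 on the IP arrays. For GAPDH the excess was 0.187 and 0.190 on the lysate arrays and 0.944 and 1.03 on the IP arrays. The part of this difference in the changes of the subunit mRNAs was not tested. Measured levels in an IP also cannot tell fewer bound molecules from less recovery of a given mRNA.

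Complex II, succinate dehydrogenase, was split between its catalytic flavoprotein and its membrane anchors. SDHA, the flavoprotein that oxidizes succinate, stood at 10.41 and 10.40 in the lysates and at 11.22 and 11.27 in the IPs. Both IP arrays lay above both lysates, and SDHA rose 1.79-fold (0.84 ± 0.11 log2, SE, n = 2 against 2; limma adjusted p = 3.99e-04), the largest rise of any member. SDHC, an anchor that binds heme and ubiquinone, stood at 10.12 and 10.06 in the lysates and at 8.21 and 7.97 in the IPs, a 3.99-fold fall (-2.00 ± 0.13; adjusted p = 3.46e-05). SDHD, the other anchor, stood at 9.58 and 9.52 in the lysates and at 7.55 and 7.61 in the IPs, a 3.91-fold fall (-1.97 ± 0.12; adjusted p = 3.46e-05). The anchors thus moved by nearly equal amounts, with both IP arrays below both lysates, as for 37.2% of all genes. Both IP arrays lay above both lysates, as here for SDHA, for 45.1% of all genes. All 5 kept probe sets of SDHC were lower, between -2.41 and -1.71. The SDHA probe set is of a class that can cross-hybridize, and a second SDHA probe set, which the platform assigns to SDHA and 3 pseudogenes together, lay at 4.61 and 4.44 in the lysates and 3.94 and 3.40 in the IPs, below the array medians. The rise of SDHA did not pass with hybridization control centring (0.36, adjusted p = 0.0598).

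Complex III carries electrons from ubiquinol to cytochrome c, and its members again divided. Of 7 tested, 4 fell (57.1%, against 28.8% of all genes), 1 rose (14.3%, against 35.0%) and 2 did not pass, with a median of -1.15. UQCR11, a single-helix subunit at the edge of the complex, stood at 11.41 and 11.31 in the lysates and at 9.32 and 8.77 in the IPs, a 4.98-fold fall (-2.32 ± 0.18; adjusted p = 4.41e-05). UQCR10, also a single-helix subunit, stood at 11.68 and 11.79 in the lysates and at 9.89 and 9.70 in the IPs (-1.93 ± 0.13; adjusted p = 3.46e-05). UQCRQ, which contacts the cytochrome b subunit, stood at 12.30 and 12.27 in the lysates and at 10.56 and 10.25 in the IPs (-1.88 ± 0.14; adjusted p = 3.75e-05). For these 3 genes both IPs were far below both lysates, and for UQCR11 the IP arrays differed by 0.55. The other UQCR11 probe set, outside both classes that can detect related transcripts, changed by -0.61, and the mean over both was -1.46. CYC1, the cytochrome c1 heme protein, fell less, from 11.13 ± 0.12 to 9.97 ± 0.01 (mean ± SD, n = 2 each), by 1.15 on the log2 scale (adjusted p = 1.18e-04).

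The core proteins of complex III, which face the matrix and descend from a processing peptidase, lay on the other side. UQCRC2 stood at 11.17 and 11.07 in the lysates and at 11.41 and 11.48 in the IPs, a change of 0.32 ± 0.12 that passed (adjusted p = 0.0416). UQCRC1 stood at 11.43 and 11.62 in the lysates and at 11.77 and 11.94 in the IPs, a change of 0.33 ± 0.13 that did not pass (adjusted p = 0.0558; 95% interval 0.03 to 0.63). Both IP arrays were above both lysates for each gene, as for 45.1% of all genes. The UQCRC2 call was lost with any of the 4 arrays left out, at changes of 0.27 to 0.37, and neither of its kept probe sets (0.32 and 0.22) passed in the test over all probe sets. UQCRC1 passed with IP replicate 1 left out (0.42, adjusted p = 0.047), with a filter at the 75th percentile (adjusted p = 0.0241), with a trended and robust limma fit (0.00594) and with all probe sets of each gene averaged (0.0484). With hybridization control centring both turned to the other sign, -0.15 for UQCRC1 and -0.16 for UQCRC2, and neither passed.

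UQCRB, the ubiquinone-binding protein of complex III, gave different answers by probe set. The represented probe set stood at 11.29 and 10.96 in the lysates and at 11.26 and 11.39 in the IPs, groups that overlapped (0.20 ± 0.14; adjusted p = 0.258), and a probe set that can cross-hybridize changed by 0.18. The third kept probe set stood at 7.91 and 7.24 in the lysates and at 6.63 and 6.42 in the IPs, a change of -1.05 that passed over all probe sets (limma adjusted p = 0.00572). The platform assigns one more probe set to UQCRH, the hinge protein of complex III, together with its near copy UQCRHL. That probe set stood at 12.54 and 12.47 in the lysates and at 10.32 and 9.76 in the IPs, a change of -2.47; with it counted as UQCRH the complex III median was -1.52.

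Complex IV, cytochrome c oxidase, was the complex in which each tested member of the fixed list fell: 11 of 11, where 28.8% of all genes were lower. Its isoforms outside that list, given further below, did not all fall. None of its members was higher by limma at an unadjusted p of 0.05, and the complex had a median of -1.71. Its catalytic core is made inside the mitochondrion, so the members here are supernumerary subunits that assemble around it, and the supercomplex factor COX7A2L. COX8A, a single-helix subunit, stood at 11.66 and 11.91 in the lysates and at 9.15 and 8.52 in the IPs, the largest fall of any member at 7.74-fold (-2.95 ± 0.21; adjusted p = 3.51e-05). COX7A2L, the protein that tethers complexes III and IV in supercomplexes, stood at 11.14 and 11.34 in the lysates and at 9.07 and 8.86 in the IPs (-2.27 ± 0.14; adjusted p = 3.46e-05). COX7A2, the widely expressed partner isoform in the oxidase itself, stood at 12.11 and 12.19 in the lysates and at 10.32 and 9.61 in the IPs (-2.19 ± 0.22; adjusted p = 9.23e-05). The IP arrays of COX7A2 were 0.71 apart, yet both lay well below the lysates. With ordinary least squares, which takes the spread of each gene alone, 9 of the 11 passed and COX7A2 did not (adjusted p = 0.0612).

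Between these and the smallest falls lay COX6C (-2.09), COX6B1 (-1.73), COX6A1 (-1.71), COX5B (-1.67), COX7B (-1.40) and COX7C (-1.13). The COX5B probe set outside the classes that can detect related transcripts changed by -0.14 and did not pass. With ordinary least squares COX6C did not pass (adjusted p = 0.0726). COX5A and COX4I1 fell least, and both encode proteins of 100 to under 200 residues, as do COX5B, COX6A1 and COX7A2L. On the represented probe sets the latter genes fell more than COX7B and COX7C, which encode proteins under 100 residues. With all probe sets of a gene averaged, COX7B (-2.00) fell more than COX5B (-1.33) and COX6A1 (-1.71), and COX7C (-1.38) more than COX5B. COX7A2L (-2.27) still fell more than both. The order thus depends on the probe set and was not tested. COX5A, which faces the matrix, stood at 12.44 and 12.55 in the lysates and at 11.61 and 11.55 in the IPs (-0.92 ± 0.12; adjusted p = 3.06e-04). COX4I1, the largest nuclear subunit of the oxidase and a site of its regulation by ATP, stood at 12.62 and 12.65 in the lysates and at 12.01 and 12.05 in the IPs (-0.60 ± 0.11; adjusted p = 0.00213). Both had tight replicates and both IP arrays below both lysates, as 37.2% of all genes had. Another probe set of COX4I1 changed by -0.66, while its 2 probe sets of low signal changed by -0.33 and 0.03 and did not pass, so the call rests on probe sets of the classes that can detect related transcripts.

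ATP synthase joins a catalytic head, a rotating ring of c subunits in the membrane and a peripheral stalk that holds the head still. Of 14 members tested, 9 fell (64.3%, against 28.8% of all genes), 2 rose (14.3%, against 35.0%) and 3 did not pass, with a median of -1.26. The rises were those of the chains that form the catalytic head. ATP5F1A, the alpha chain, stood at 12.57 and 12.58 in the lysates and at 13.27 and 13.28 in the IPs, a 1.62-fold rise (0.70 ± 0.11; adjusted p = 9.96e-04). ATP5F1B, the beta chain with the catalytic sites, stood at 12.42 and 12.43 in the lysates and at 12.77 and 12.85 in the IPs, a 1.31-fold rise (0.39 ± 0.11; adjusted p = 0.0181). Replicates of both were nearly equal, and both IP arrays lay above both lysates, as for 45.1% of all genes. The ATP5F1B call was lost with either lysate left out (0.39 each time) or without IP replicate 2 (0.35). With hybridization control centring neither passed, at 0.22 for ATP5F1A and -0.09 for ATP5F1B.

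The other chains of the head did not follow. ATP5F1C, the gamma shaft, changed by -0.27 ± 0.12 and did not pass (adjusted p = 0.0816), its 3 probe sets lying between -0.30 and -0.24; it passed with a filter at the 75th percentile (0.0430), a trended fit (0.00927) and hybridization control centring (-0.75, 0.00309). ATP5F1D, the delta chain, fell by 1.40. ATP5F1E, the epsilon chain and the shortest protein of the set, stood at 12.10 and 11.73 in the lysates and at 10.87 and 10.64 in the IPs (-1.16 ± 0.16; adjusted p = 4.07e-04, but 0.0703 with ordinary least squares). In the peripheral stalk, ATP5PB changed by 0.24 ± 0.11 (adjusted p = 0.101), and it passed with quantile normalization (0.38, adjusted p = 0.0196) and with a trended fit (0.00700). ATP5PD stood at 11.77 and 11.68 in the lysates and at 11.52 and 11.68 in the IPs, an overlap (-0.12 ± 0.12; adjusted p = 0.409), with its second, dim probe set at 0.13. ATP5PF and ATP5PO, the coupling factor and the oligomycin sensitivity protein that caps the stalk, fell by 1.45 and 1.24, but a second ATP5PO probe set that can cross-hybridize changed by -0.24 without passing.

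The c subunit of the rotor ring is encoded by 3 genes that give the same mature protein behind different import sequences, so they offer separate mRNAs for 1 product. ATP5MC1 stood at 10.15 and 10.36 in the lysates and at 8.26 and 7.94 in the IPs, a 4.47-fold fall (-2.16 ± 0.15; 95% interval -2.51 to -1.81; adjusted p = 3.51e-05), the largest among the 14 members in ATP synthase. ATP5MC2 stood at 11.71 and 11.85 in the lysates and at 9.96 and 9.91 in the IPs (-1.84 ± 0.12; interval -2.12 to -1.57; adjusted p = 3.46e-05). ATP5MC3 stood at 12.16 and 12.12 in the lysates and at 10.89 and 10.84 in the IPs (-1.28 ± 0.11; interval -1.54 to -1.01; adjusted p = 6.41e-05). The estimates for the 3 mRNAs were unequal. The interval of ATP5MC3 lies apart from those of the others, though only narrowly from that of ATP5MC2 (-1.54 against -1.57), and those of the others overlap each other. The values come from different probes, and the difference itself was not tested. The 3 kept probe sets of ATP5MC3 lay between -1.28 and -1.13. ATP5MG, a membrane subunit near the ring, stood at 12.06 and 11.94 in the lysates and at 10.34 and 10.07 in the IPs (-1.80 ± 0.14; adjusted p = 4e-05), and ATP5ME, another, fell by 1.59. The single-symbol probe set of ATP5MF lay near the array medians, at 4.85 and 4.43 in the lysates and 4.98 and 4.37 in the IPs, but a bright probe set shared with ARMC2-AS1 stood at 12.34 and 12.21 in the lysates and at 11.04 and 10.76 in the IPs.

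The medians of the complexes ran from -1.97 in complex II (3 genes) over -1.71 in complex IV and -1.26 in ATP synthase to -1.15 in complex III, and the changes of single genes spanned -2.00 to 0.84 inside complex II and -2.16 to 0.70 inside ATP synthase. Against the lysate mean the medians on IP replicates 1 and 2 were -1.88 and -1.94 for complex II, -1.16 and -1.15 for complex III, -1.58 and -1.85 for complex IV and -1.21 and -1.31 for ATP synthase. Complex IV was also the complex without any large nuclear subunit. With 2 samples a group these medians are given as a description.

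Large and small subunits were set apart by the size of the encoded protein. Members were placed by general knowledge of the human precursor proteins into large (200 residues or more), intermediate (100 to under 200) and small (under 100); the lengths themselves were not computed here. Of 9 large members, 4 rose (SDHA, ATP5F1A, ATP5F1B and UQCRC2), 2 fell (CYC1 and ATP5PO) and 3 did not pass, with a median of 0.32. The share of large members called higher, 44.4%, was near the 35.0% of all genes, and their share called lower, 22.2%, near the 28.8%. With hybridization control centring the median of the large members was -0.16 and none was called higher (1 at an unadjusted p of 0.05). Of 15 intermediate members, 13 fell, none rose and UQCRB and ATP5PD did not pass, with a median of -1.67. All 11 small members fell, with changes from -2.95 to -1.13 and a median of -1.88. No intermediate or small member was higher by limma at an unadjusted p of 0.05.

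**Figure D2:**
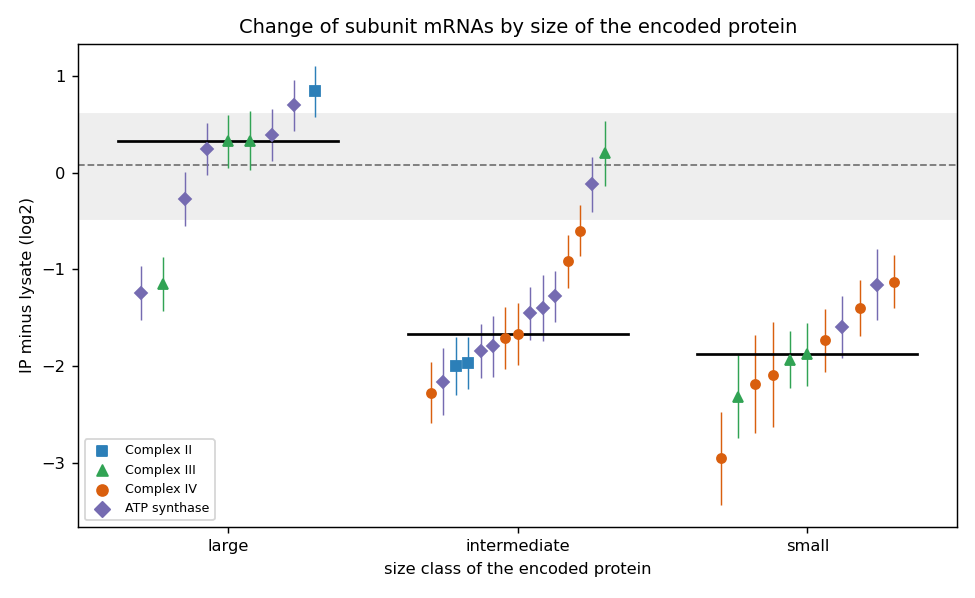
Change of each of the 35 members (IP minus lysate, log2, vertical axis) by size class of the encoded protein, with 95% limma intervals; symbols mark the complex, black lines the class medians, the dashed line the median of all genes and the grey band their interquartile range. The large class has its median at 0.32, inside the band, and the intermediate and small classes have theirs at -1.67 and -1.88, below it.

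The contrast held on each IP array. Against the lysate mean the large members had a median of 0.25 on IP replicate 1 and 0.36 on IP replicate 2, and the small members -1.70 and -2.03. The gap between large and small was therefore 1.95 and 2.39, both against the same lysate mean. As a difference within an array it does not depend on how arrays are centred. On the lysate arrays, set against their own mean, it was -0.02 and 0.02, equal and opposite by construction, which shows only their spread. Against the median of all genes, 6 of 9 large, 1 of 15 intermediate and none of 11 small members lay above it. Within complex III the 3 large members had a median of 0.32 and the 3 small ones -1.93, and within ATP synthase the 5 large members had a median of 0.24 and the 7 intermediate and 2 small ones -1.45 and -1.38. CYC1 and ATP5PO show that a large product did not go with a rise in each case. The same size classes were not made over all genes, so whether the gap is particular to these subunits was not tested.

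The IP replicates also differed by size class. IP replicate 2 was below IP replicate 1 for 11 of 11 small members, 11 of 15 intermediate members and 1 of 9 large members, where 48.5% of all genes tested had that order. The median difference between the IP arrays (replicate 2 minus replicate 1) was -0.30 for small, -0.13 for intermediate and 0.07 for large members, beside 0.01 over all genes. COX6C, at 9.72 and 8.95 in the IPs against 11.51 and 11.33 in the lysates, had the widest gap. On IP replicates 1 and 2 the 3′ to 5′ end difference was 3.02 and 2.96 for actin and 0.944 and 1.03 for GAPDH. Whether RNA integrity has a part in the order of the IP replicates was not tested.

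Gene length in the genome, which the gene table gives, followed the changes loosely. Spearman's rho between genomic span and change was 0.23 across the 35 members and 0.23 across 13148 genes tested, a description across genes. The members are short genes, with a median span of 8.29 kb against 28.6 kb for all genes tested. Among genes with spans under 10 kb, 3043 genes of the whole table had a median change of -0.11 and the 19 members among them -1.59. From 10 to under 30 kb the medians were 0.03 and -1.08, and from 30 to under 100 kb 0.15 and -0.84 (4 members). A span includes introns and is not the length of the mRNA. Of the promoter elements shown above, NRF1 was in 4 of 7 large, 4 of 11 intermediate and 3 of 10 small members with a listed promoter. The ETS element was in 0 of the 7 large, 7 of the intermediate and 5 of the small ones. These counts are a description, with no test.

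Probe sets of the same gene mostly pointed one way. Of 78 probe sets, 66 reached the filter, of which 47 were lower, 3 higher and 16 did not pass. Of all 27307 probe sets kept, 59.4% were called, 27.9% lower and 31.5% higher. Among 18 members with 2 or more kept probe sets, 15 had a single sign and UQCRB, ATP5PD and COX4I1 had both. Sizes were less uniform: probe sets of UQCR11 lay at -2.32 and -0.61, those of COX7B at -2.60 and -1.40, and those of COX5B between -1.78 and -0.14. The 29 kept probe sets outside the 2 classes that can detect related transcripts had a median of -1.24, the 18 of the class shared among transcripts -1.43 and the 19 that can cross-hybridize -1.27. Many of these genes have processed pseudogenes, so values from the last class are uncertain; the represented probe sets of SDHC, COX4I1, COX7C, ATP5F1C, ATP5MG, ATP5ME and SDHA belong to it.

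**Figure D3:**
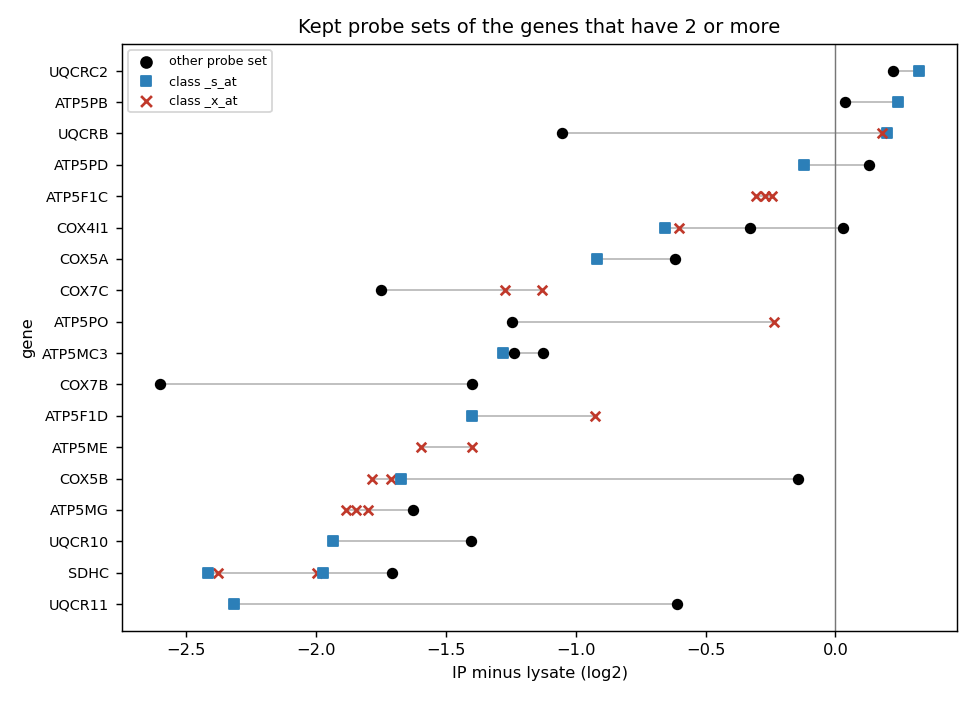
Change (IP minus lysate, log2, horizontal axis) of each kept probe set of the 18 members that have 2 or more (vertical axis); black circles are probe sets outside both suffix classes, blue squares the class shared among transcripts (_s_at) and red crosses the class that can cross-hybridize (_x_at). UQCRB spans -1.05 to 0.20, whereas the probe sets of ATP5F1C and ATP5MC3 lie within 0.16 of each other.

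Other parts of the same machinery were measured as fixed lists. Of 13 further subunits, tissue isoforms and partner proteins, 9 were tested. Of these, 7 were lower (77.8%, against 28.8% of all genes), none higher (against 35.0%) and 2 did not pass, with a median of -1.48. NDUFA4, now placed in complex IV, stood at 11.28 and 11.22 in the lysates and at 8.78 and 7.99 in the IPs (-2.86 ± 0.23; adjusted p = 4.75e-05), and ATP5MJ, a small membrane subunit of ATP synthase, changed by -2.41 (adjusted p = 3.51e-05). The muscle and lung isoforms COX6A2 and COX4I2, of low signal here, changed by 0.28 and 0.26 without passing. Of 6 subunits encoded in the mitochondrial genome for complexes III to V, the 4 measured were lower, where 28.8% of all genes were. All 4 were read from probe sets of the classes that can detect related transcripts, so their values are uncertain. MT-ATP6 of ATP synthase changed by -2.97, and MT-CO3, MT-CO2 and MT-CO1 of the oxidase core by -2.63, -2.04 and -1.46. The difference between their IP arrays (replicate 2 minus replicate 1) ran from -1.29 to -0.61.

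Assembly factors, which build these complexes without staying in them, also moved in both directions. Of 40 listed, 39 were tested: 24 were lower (61.5%, against 28.8% of all genes), 8 higher (20.5%, against 35.0%) and 7 did not pass, with a median of -0.75. LYRM7, which delivers the iron-sulfur protein of complex III, stood at 9.32 and 8.87 in the lysates and at 6.73 and 5.87 in the IPs (-2.79 ± 0.28; adjusted p = 9.32e-05). SDHAF3, a maturation factor of complex II, changed by -2.36 (limma adjusted p = 3.46e-05). On the other side LRPPRC, a very large protein that stabilizes mitochondrial mRNAs, stood at 9.72 and 9.61 in the lysates and at 10.65 and 10.56 in the IPs (0.94 ± 0.12; adjusted p = 2.86e-04). SDHAF1, a factor for the iron-sulfur subunit of complex II, changed by 0.74 (limma adjusted p = 9.56e-04). Assembly factors were not placed in the size classes. By general knowledge the product of SDHAF1 is under 200 residues, so a product that is not large also went with a rise. Lower and higher factors numbered 2 and 2 for complex II, 3 and 2 for complex III, 15 and 4 for complex IV and 4 and 0 for ATP synthase.

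**Figure D4:**
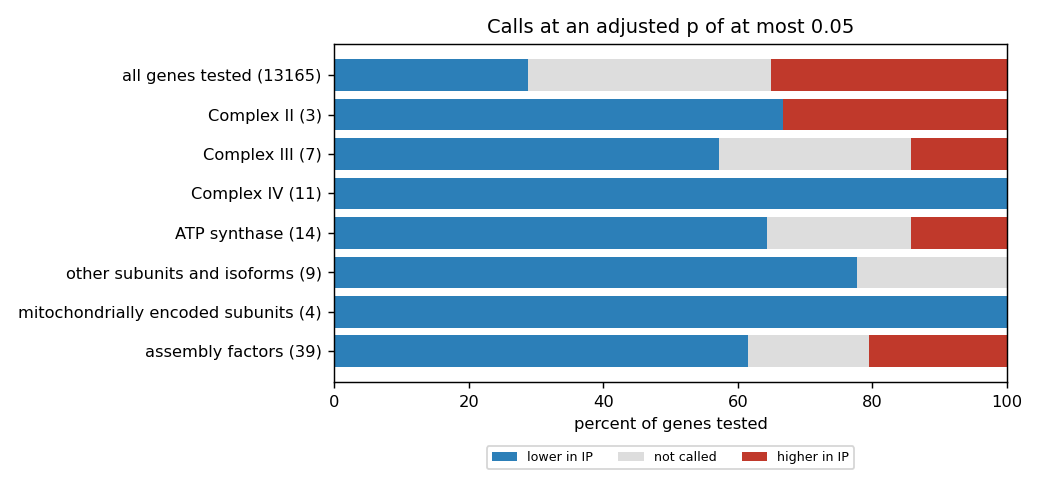
Percent of genes tested (horizontal axis) called lower in the IP (blue), not called (grey) or called higher (red) at a limma adjusted p of at most 0.05, for all genes, the 4 complexes and the 3 other lists; the number tested is in parentheses. Complex IV and the mitochondrially encoded subunits are blue throughout, while 28.8% of all genes are.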

How the data were processed

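RNA of 2 lysates and 2 FMRP immunoprecipitates was measured on 4 arrays, with 2 µg of RNA labelled each, per the labels' protocols. The authors deposited 1 signal per probe set and array, on what the range of the values shows to be a log2 scale; how the signals were summarized and normalized is not given in the sources used here. Of 54675 probe sets, 62 were controls and 41091 had 1 gene symbol, of which 41037 matched a gene of the GRCh38.p14 table. Probe sets with a mean of at least 4.69, the median of all non-control probe sets, were kept, and the brightest represented its gene (13165 genes). The difference between IPs and lysates was tested with limma 3.58.1 (R 4.3.3; lmFit, then eBayes; 2 residual and 5.50 prior degrees of freedom, two-sided, Benjamini-Hochberg over all genes, threshold 0.05), and again over 27307 probe sets. The fit was tested on simulated data. Members, lists, size classes and settings were chosen with earlier results of these data known. Values per array were given for complex II, for the 3 lowest and 2 highest changes of each other complex, for genes called higher, for the c subunit genes, for genes whose probe sets differ in sign and for the longest and shortest product; in the other lists the 2 lowest and 2 highest were named. Figures were drawn with matplotlib 3.10.9. No batch is named in the labels, and the arrays' number limits the precision. Size classes, and the longest and shortest product, come from general knowledge of the proteins, without computed lengths, so the split of members at their median length was not run. The same size classes over all genes, and a rank correlation of protein length with change, were planned but could not be made without lengths.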

Additional observations from a re-analysis of the deposited data

How the results depend on the processing

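The count of lower members stayed at 26 to 28 of 35 to 37 genes under each other setting tried, except 23 with ordinary least squares and 19 of 26 without the probe set classes _x_at and _s_at; their probe sets called lower numbered 35 to 55. With 4 higher members in the text, the count was 0 with hybridization control centring, 2 with no filter or at a threshold of 0.01, 1 without the classes _x_at and _s_at, and 2 to 4 with an array left out; it was 5 with quantile normalization or a filter at the 75th percentile and 6 with a trended and robust fit. Hybridization control centring gave medians of -1.88 for all members, -2.45, -1.63, -2.19 and -1.74 for complexes II, III, IV and V, and -0.16, -2.15 and -2.36 for large, intermediate and small members; there ATP5F1B (-0.090), ATP5PB (-0.24), UQCRB (-0.28), UQCRC1 (-0.15) and UQCRC2 (-0.16) changed sign, none past the threshold, as the centring lowers each change by 0.48. Without the classes _x_at and _s_at, which leaves 26 members, the medians were -1.24 for all members, -1.84, -1.05 and -1.16 for complexes II, III and V, and 0.13 and -1.24 for large and intermediate members; ATP5PD was at 0.13 and UQCRB at -1.05. Averaging the probe sets of a gene, ATP synthase was at -1.16, intermediate members at -1.45, ATP5PD at 0.0031 and UQCRB at -0.22; the cause was not tested. With the shared probe sets taken in, a setting chosen after seeing the data, complex III was at -1.52. With an array left out the medians ran from -1.24 to -1.07 (complex III), -1.31 to -1.17 (ATP synthase), 0.24 to 0.36 (large) and -2.03 to -1.64 (small). Over all genes 8402 were called, and 4576 with ordinary least squares, which has 2 degrees of freedom. Same-numbered samples had deviations correlated at 0.06 across probe sets. This rests on a single pair of differences and cannot tell whether the samples were paired. With the replicate block 8599 genes were called, 26 members lower and 5 higher, UQCRC1 among the latter (limma adjusted p = 0.0365). Signal near the array medians, where no floor is known, limits the dim probe sets.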
